A study of Homo sapiens with 2 samples.

Results

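The genes described here are 52 named genes of autophagy and of the lysosome, chosen by name from the 60623 gene entries of the RNA sequencing counts. They comprise 34 autophagy genes, counting the transcription factors TFEB, TFE3 and MITF among them, and 18 lysosome genes, which encode membrane proteins, hydrolases and other lumenal proteins. The 2 libraries came from HepG2, a line of human hepatocellular carcinoma cells recorded with the genotype WT. Cells of both libraries received 1 mM FFA, a mixture of oleic and palmitic acid bound to bovine serum albumin, for 24 h to load them with lipid. Cells of the library FFA + 9-cis-RA were also given 10 μM 9-cis-RA, a retinoid ligand of the nuclear receptors RXR and RAR, and those of the library FFA were not. Both carry the label Batch 1. HepG2 is a tumor line, so its lysosomal and autophagy transcripts are those of a proliferating carcinoma cell and not of liver tissue.

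Autophagy encloses cytoplasm, organelles or lipid droplets in a double membrane, the autophagosome, and delivers them to the lysosome. A kinase complex around ULK1 starts the process, a lipid kinase complex around PIK3C3 and BECN1 marks the membrane, and a pair of ubiquitin-like conjugation systems attaches proteins of the ATG8 family to it. In hepatocytes the delivery of lipid droplets by this route, lipophagy, ends in hydrolysis by lysosomal acid lipase, and TFEB and TFE3 activate many autophagy and lysosomal genes through the CLEAR element, a palindromic extension of the E-box in their promoters.

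The E-box at the core of that element was searched in the RefSeq promoters of GRCh38.p14, which span 250 bases before to 50 bases after each start site. A promoter entry was found for 45 of the 52 members. RB1CC1, UVRAG, MAP1LC3A, LAMP2, CTSB, HEXA and PSAP had none in the table. The E-box CACGTG was present in the promoters of 8 members (17.8%), against 8.77% of the 27305 genes with a promoter entry. It was present in 6 of 14 lysosome genes (42.9%), namely LAMP1, MCOLN1, CTSA, CTSD, GAA and NEU1, and in 2 of 31 autophagy genes (6.45%), ATG3 and ATG14. The E-box preceded by T on either strand, TCACGTG, was present in the same 8 members and in 4.49% of all genes. In the lines below, 30-base windows of the strand of the gene are written 5′ to 3′, with CACGTG in capitals. They are shown for the 2 genes of the 8 with the lowest log2 fold changes, ATG3 and CTSD, for GAA, and for LAMP1, the most abundant by TPM of the 3 member genes of the lysosomal membrane. They lie at chr3:112561963-112561992 (minus strand, E-box at bases -18 to -13 from the start site), chr11:1763957-1763986 (minus, -47 to -42), chr17:80101493-80101522 (plus, -76 to -71) and chr13:113297199-113297228 (plus, -28 to -23).
ATG3: cctttctcacgtCACGTGccgggagagtct
CTSD: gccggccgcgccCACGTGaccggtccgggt
GAA: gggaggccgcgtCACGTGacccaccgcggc
LAMP1: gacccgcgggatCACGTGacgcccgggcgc

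In all, the 8 promoters held 17 E-boxes, 6 of them in LAMP1. The recognition motif of nuclear receptors such as RAR and RXR was searched as AGGTCA on either strand. It was present for 3 of the 45 members (6.67%), MITF, BECN1 and SQSTM1, against 16.5% of all genes. For each motif, a gene counted if any of its promoter entries held it, and MITF and SQSTM1 had 3 entries each. The direct repeat of this motif after a gap of 5 bases was present in 0 of the 45 and in 0.00732% of all genes. Only exact repeats were searched and they were rare everywhere (2 of 27305 genes), so the 0 says nothing about the members. These matches describe letters in the windows searched. No binding of a factor was measured.

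The deposited values were raw fragment counts, in total 60821539 for FFA and 57669670 for FFA + 9-cis-RA. After division by the size factors of DESeq2 and addition of a pseudocount of 1, the log2 ratio of FFA + 9-cis-RA to FFA was computed for 20431 genes, those with 10 or more counts in the pair of libraries. With 1 library per group there was no replicate check, so no test of the treatment could be made and no p-value or SD is given. Each value has an exact 95% counting interval (Clopper-Pearson), which covers counting error only and compares these 2 libraries, not the conditions. In bulk RNA, fewer cells of a type and less RNA per cell cannot be told apart. CYP26A1, a retinoic acid hydroxylase induced by retinoids, had 4 counts in FFA and 709 in FFA + 9-cis-RA, the order that the treatment label implies. Of 8 HepG2 and hepatocyte markers, 7 had at least 21509 counts in each library and TTR had 341 and 278. Their summed counts were lower in FFA + 9-cis-RA (981071) than in FFA (1195601). The largest falls were in AFP (273242 to 134862) and ALB (186609 to 112866). TF, HNF4A and TTR were also lower, and APOA1, APOB and SERPINA1 had slightly more counts in FFA + 9-cis-RA. Of 8 macrophage markers, the pan-leukocyte gene PTPRC was at 0 in both libraries, LYZ had 5883 and 3332 counts, and the 7 genes without LYZ summed to 73 and 58. The 8 stellate and endothelial markers summed to 251 and 153, with DCN, LRAT and KDR at 0 in both. The part of these marker differences in the results below was not tested.

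Of the 52 members, 49 could be compared and 48 had at least 1000 counts over both libraries, where counting error is small. ULK2 (0 counts in FFA, 4 in FFA + 9-cis-RA), MAP1LC3A (3 and 0) and the cathepsin gene CTSZ (4 and 5) were at or near the floor of 3 counts per library in HepG2 cells and are given no fold change. The members together took 0.625% of counts in FFA and 0.659% in FFA + 9-cis-RA.

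Lysosome genes were the more abundant arm. On the scale of TPM (counts per exonic length set to the same total in each library, mean of both libraries), the compared lysosome genes had a median level of 103 and the compared autophagy genes 18.5. The highest level was that of PSAP, the precursor of the saposins that assist sphingolipid hydrolysis, at 486 TPM, rank 173 among all genes. The cargo receptor SQSTM1 (p62) followed at 396 TPM, the protective carboxypeptidase CTSA at 379, the cysteine protease CTSB at 276 and the sialidase NEU1 at 232. Of these 5 genes, only SQSTM1 belongs to autophagy. The lowest level among the compared members was 0.423 TPM, for MITF. Neighbors in this order were not tested against each other. TPM divides by the full exonic length, including bases overlapped by another gene, where reads were not counted. It therefore understates overlapped members such as CTSD (143 TPM, 42.2% of exonic bases overlapped), and their place in the order is uncertain.

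**Figure D1:**
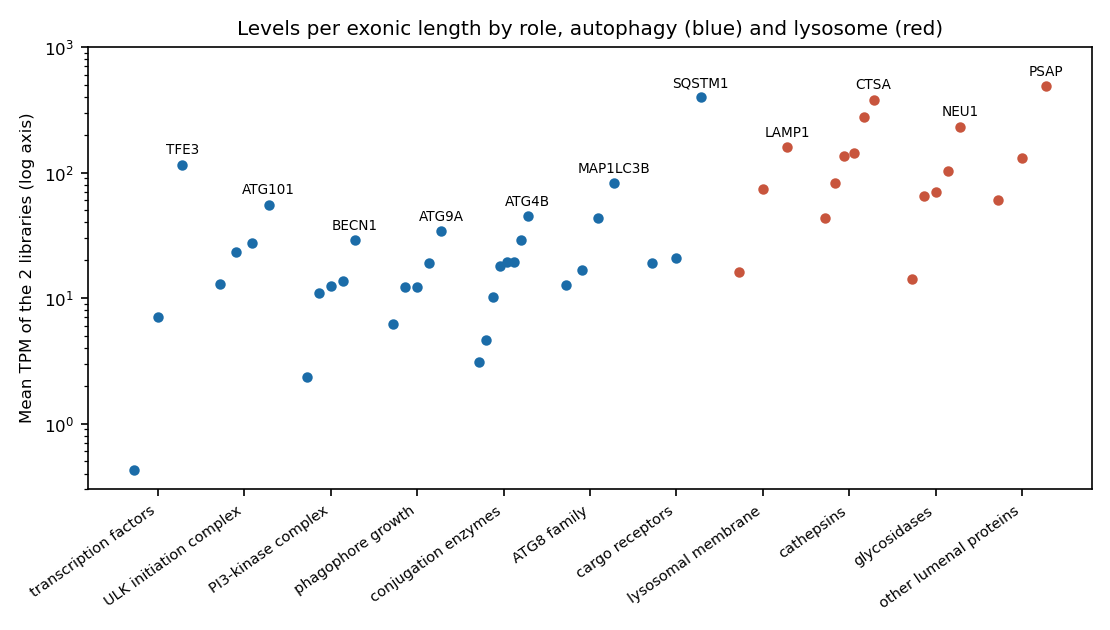
Level of each compared member in TPM (mean of the 2 libraries, log axis) by role, with autophagy genes in blue and lysosome genes in red and the highest gene of each role named. PSAP (486 TPM) and SQSTM1 (396 TPM) stand highest, and MITF (0.423 TPM) lowest.

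Autophagy and lysosome genes stood on different sides of the distribution of members. The 32 autophagy genes had a median log2 fold change of 0.15 (quartiles 0.0059 and 0.23), with 24 above 0 and 8 below. The 17 lysosome genes had a median of -0.067 (quartiles -0.18 and 0.057), with 6 above 0 and 11 below, although this median became 0.023 when libraries were scaled by the total of counts per exonic length, the scaling of TPM. Over all 20431 genes the median was -0.020 (quartiles -0.26 and 0.18), and 47.7% were above 0 and 52.3% below (51.3% and 48.7% among genes with at least 1000 counts). The median of all genes moved to 0.070 with per-length total scaling, and signs are given relative to 0. The lysosome median minus the autophagy median was -0.22 in log2 units, and it lay between -0.24 and -0.16 under all 14 alternatives run. Another library scaling shifts all genes almost equally and cancels in this difference, so those alternatives could not move it. Pseudocounts barely act at these counts. The genes are not replicates, and the difference has no test.

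Counting intervals lay wholly above 0 for 17 of 32 autophagy genes (53.1%) and for 4 of 17 lysosome genes (23.5%), against a background of 22.5% of all genes and 34.4% of the genes with at least 1000 counts. They lay wholly below 0 for 4 autophagy genes (12.5%) and 10 lysosome genes (58.8%), against 25.7% of all genes and 34.7% of those with at least 1000 counts. The split of 4 above and 10 below among lysosome genes became 7 and 7 with total-count scaling or with a trend on GC content removed, and 9 and 7 with per-length total scaling. The share of autophagy genes above 0 was larger than either background, and so was the share of lysosome genes below 0 under the size factors of DESeq2. Intervals narrow as counts rise, and neither background was matched for depth. The median count over both libraries was 17843 for lysosome genes and 4281 for autophagy genes. It was 1045 for all genes and 5155.5 for those with at least 1000 counts.

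No member passed a log2 fold change of 1 in either direction, where 3.37% of all genes passed upward and 4.9% passed downward. Among genes with at least 1000 counts the shares were 0.204% and 0.66%, so few well-counted genes passed. Above 0.5 stood 2 members, MAP1LC3B and ULK1, against 9.03% of all genes and 1.73% of those with at least 1000 counts. Below -0.5 stood 0 members, against 14.3% and 4.38%. The members ranged from -0.48 (CTSC) to 0.58 (MAP1LC3B).

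**Figure D2:**
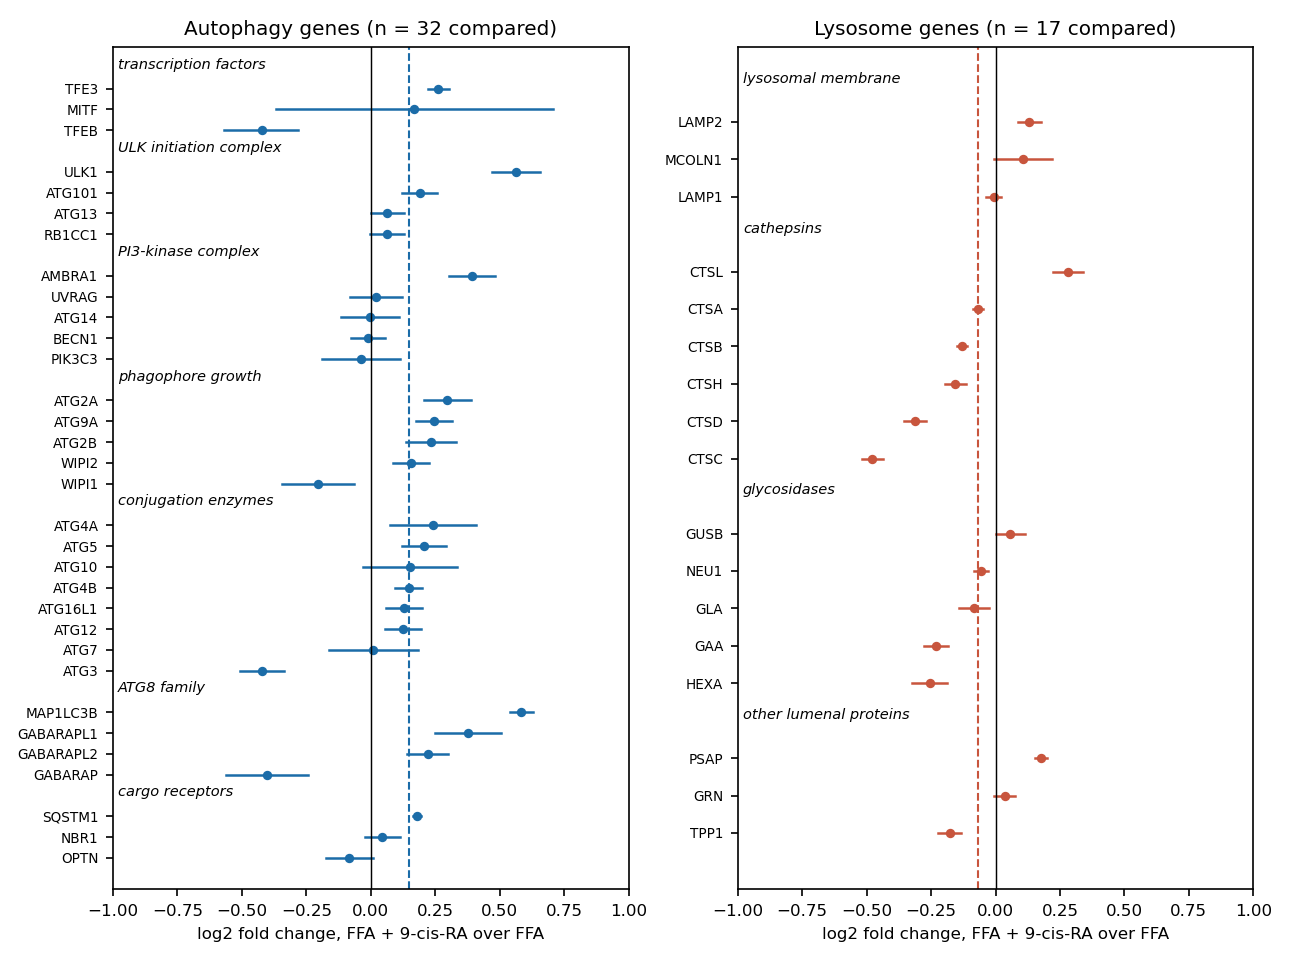
Log2 fold change (FFA + 9-cis-RA over FFA) of each compared member by role, with points at the value, bars for the 95% counting interval and a dashed line at the median of the arm (0.15 for 32 autophagy genes, -0.067 for 17 lysosome genes). Most autophagy genes lie right of 0 and 5 of 6 cathepsins and 4 of 5 glycosidases lie left of it, while TFEB, ATG3 and GABARAP lie at -0.42, -0.42 and -0.40.

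**Figure D3:**
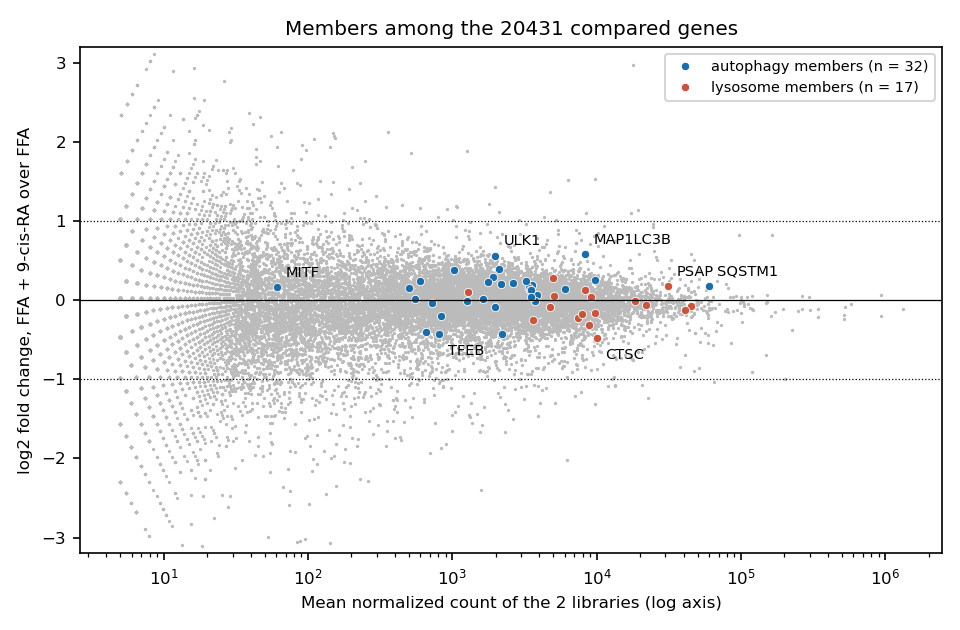
Log2 fold change against mean normalized count (log axis) for the 20431 compared genes (grey; 37 lie outside the plotted range of 3.2 in either direction) with autophagy genes in blue and lysosome genes in red. The members sit at moderate to high counts, and all 49 lie between -0.48 and 0.58.

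Among the transcription factors, TFEB and TFE3 differed in opposite directions. TFEB (chromosome 6, 41683978 to 41736259) had 941 counts in FFA and 688 in FFA + 9-cis-RA, a log2 fold change of -0.42 (counting interval -0.57 to -0.28). TFE3 (chromosome X, 49028726 to 49043410), its close relative, had 8960 and 10532 counts and a log2 fold change of 0.26 (0.22 to 0.30). MITF, best known from melanocytes, had 58 and 64 counts, 0.17 (-0.37 to 0.71), and its depth does not separate it from 0. TFE3 was thus the main member of the family in these cells, with 90.0% of the counts of the 3 genes in FFA and 93.3% in FFA + 9-cis-RA. The share of TFEB was 9.45% (exact interval 8.88 to 10.0) in FFA and 6.10% (5.66 to 6.55) in FFA + 9-cis-RA, and the intervals do not overlap.

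ULK1, the kinase that starts autophagosome formation, stood highest of the initiation genes. ULK1 (chromosome 12, 131894622 to 131923150) had 1617 counts in FFA and 2343 in FFA + 9-cis-RA, 47.7% more after normalization and a log2 fold change of 0.56 (0.47 to 0.65). Its partners were closer to 0, at 0.19 for ATG101, 0.064 for the regulatory subunit ATG13 and 0.063 for the scaffold RB1CC1 (FIP200). The intervals of ULK1 and ATG101 lay above 0 and those of ATG13 and RB1CC1 included it.

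In the PI3-kinase complex, which makes the phosphoinositide of the forming autophagosome, 1 gene stood apart. AMBRA1 (chromosome 11, 46396414 to 46594125), which links BECN1 to its regulators, had 1837 counts in FFA and 2364 in FFA + 9-cis-RA, a log2 fold change of 0.39 (0.30 to 0.48). The scaffold BECN1 (-0.011), the catalytic subunit PIK3C3 (-0.038), ATG14 (-0.0041) and UVRAG (0.021) had intervals that included 0. The signs of these 4 values each turned under at least 1 other scaling or trend removal.

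Of the 5 genes of phagophore growth, 4 had intervals above 0. The lipid transfer gene ATG2A (chromosome 11, 64894546 to 64917211) had 1735 and 2092 counts and a log2 fold change of 0.30 (0.21 to 0.39), and its homolog ATG2B stood at 0.23. The scramblase gene ATG9A (chromosome 2, 219219380 to 219229717) had 2999 and 3485 counts and a value of 0.24. Another gene overlaps 38.8% of the exonic bases of ATG9A on the same strand, where reads were not counted. The phosphoinositide-binding WIPI2 stood at 0.16, and its relative WIPI1 on the other side at -0.20 (-0.34 to -0.063), with 905 and 771 counts.

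Of the 8 genes for the conjugation enzymes and the proteins they use, 7 were above 0 and 1 was far below. ATG3 (chromosome 3, 112532510 to 112562046), the E2-like enzyme that attaches ATG8 proteins to phosphatidylethanolamine, had 2571 counts in FFA and 1882 in FFA + 9-cis-RA. Its log2 fold change was -0.42 (-0.51 to -0.34), and its promoter is 1 of the 2 autophagy promoters with an E-box. The proteases that process ATG8 proteins stood at 0.24 (ATG4A) and 0.15 (ATG4B), the E1-like ATG7 at 0.0092 and the E2-like ATG10 at 0.15. The parts of the complex that directs conjugation stood at 0.21 (ATG5), 0.13 (ATG12) and 0.13 (ATG16L1), with intervals above 0 for all 3. ATG3 was therefore the exception in its list, lower by 25.4% while the values of the others ranged from 0.642% to 18.1% higher. The intervals of ATG7 and ATG10 included 0, and ATG7 stood at -0.020 with the length trend removed.

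The ATG8 family held both the highest member and 1 of the lowest. MAP1LC3B (chromosome 16, 87383953 to 87404779), which encodes LC3B, the usual marker of autophagosomes, had 6692 counts in FFA and 9842 in FFA + 9-cis-RA. Its log2 fold change was 0.58 (0.54 to 0.63), or 49.9% more normalized counts. A near copy, MAP1LC3B2, shares 5.64% of the 75-base words of the MAP1LC3B transcript, where reads could not be assigned.

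GABARAPL1 (chromosome 12, 10212458 to 10223128) had 900 and 1147 counts, 0.38 (0.25 to 0.51). GABARAPL2 (chromosome 16, 75566375 to 75577881) had 2468 and 2821 counts, 0.22 (0.14 to 0.30). GABARAP (chromosome 17, 7240008 to 7242449) had 758 and 563 counts, -0.40 (-0.56 to -0.24). Within the GABARAP subfamily the founding gene was therefore lower in FFA + 9-cis-RA while both paralogs were higher. Another gene on the same strand overlaps 35.4% of the exonic bases of GABARAP, so its counts come from the rest of the gene.

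The makeup of the ATG8 family differed between the libraries. MAP1LC3B took 61.8% (60.9 to 62.8) of the 10821 ATG8 counts in FFA and 68.5% (67.7 to 69.2) of the 14373 in FFA + 9-cis-RA. GABARAP took between 6.53% and 7.50% (exact interval) in FFA and 3.92% (3.61 to 4.25) in FFA + 9-cis-RA. The shares of GABARAPL2 were 22.8% and 19.6%, and those of GABARAPL1 were 8.32% and 7.98%. Shares within a library do not depend on how the libraries are scaled. They are shares of raw counts, not corrected for gene length or for bases that could not be counted, and do not rank the genes by abundance. In TPM, GABARAP stood above GABARAPL1, at 18.5 against 10.6 in FFA and 14.9 against 14.6 in FFA + 9-cis-RA.

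**Figure D4:**
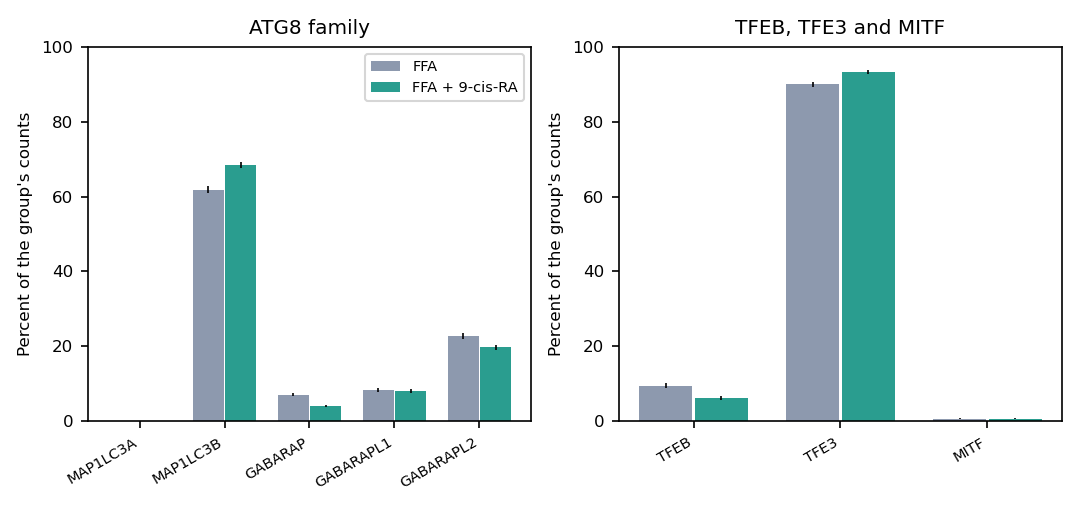
Share of raw counts (percent, not corrected for gene length) of each gene within the ATG8 family and the TFEB/TFE3/MITF family in FFA and in FFA + 9-cis-RA. MAP1LC3B goes from 61.8% to 68.5% of ATG8 counts and TFEB from 9.45% to 6.10% of its family.

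The cargo receptors, which tie ubiquitinated cargo to ATG8 proteins, stood near 0 except for SQSTM1. SQSTM1 (chromosome 5, 179806398 to 179838078) had 56845 counts in FFA and 63157 in FFA + 9-cis-RA, a log2 fold change of 0.18 (0.16 to 0.20). It made up 42.4% of the counts of the autophagy genes in FFA and 42.5% in FFA + 9-cis-RA. Without it, the log2 ratio of the summed autophagy counts was 0.18, as it was with it. NBR1 stood at 0.045 and OPTN at -0.083, with intervals that included 0.

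Among the lysosomal membrane genes, LAMP2, which encodes an abundant glycoprotein of the lysosomal membrane, was higher in FFA + 9-cis-RA. It had 7954 and 8546 counts and stood at 0.13 (0.087 to 0.18). LAMP1 had 18706 and 18264 counts and a value of -0.0069, which became positive with every other scaling tried. The calcium channel gene MCOLN1 stood at 0.11 (-0.0044 to 0.22). Both LAMP1 and MCOLN1 have E-boxes in their promoters.

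The cathepsins, the main lysosomal proteases, had the lowest median of the 11 roles, -0.14, with 5 of 6 compared genes below 0. CTSC (chromosome 11, 88293592 to 88337761), the dipeptidyl peptidase that activates granule serine proteases, was the lowest member, with 11783 counts in FFA and 8302 in FFA + 9-cis-RA. Its log2 fold change was -0.48 (-0.52 to -0.44), or 28.2% fewer normalized counts.

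CTSD (chromosome 11, 1752755 to 1764573), the aspartic protease, had 9969 and 7874 counts, -0.31 (-0.36 to -0.27). Another gene on the same strand overlaps 42.2% of its exonic bases. CTSH stood at -0.16 and CTSB (chromosome 8, 11842524 to 11869448) at -0.13, with 42941 and 38506 counts for CTSB.

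CTSA (chromosome 20, 45890144 to 45898820) had 46250 and 43309 counts, -0.067 (-0.086 to -0.048), a sign that turned with per-length total scaling (0.023) and with the expression trend removed (0.0023). CTSL (chromosome 9, 87726109 to 87731469), a cysteine protease like CTSB, was the exception, with 4553 and 5430 counts and a log2 fold change of 0.28 (0.22 to 0.34). Within the raw counts of the cathepsins, not corrected for length, CTSL took 3.62% (3.51 to 3.72) in FFA and 4.82% (4.70 to 4.95) in FFA + 9-cis-RA. CTSC took 9.36% (9.20 to 9.52) and 7.38% (7.22 to 7.53).

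Of the 5 glycosidases, 4 were below 0, with a median of -0.085 that became 0.0055 under per-length total scaling. HEXA, a subunit of the hexosaminidase that degrades GM2 ganglioside, had 4003 and 3288 counts and stood at -0.26 (-0.33 to -0.19). GAA, the acid glucosidase that degrades glycogen, had 8125 and 6793 counts and stood at -0.23 (-0.28 to -0.18). Both were lower in FFA + 9-cis-RA by more than counting error, and the sign held under each scaling tried.

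The galactosidase GLA (-0.085) and the sialidase NEU1 (chromosome 6, 31857659 to 31862822, 22769 and 21491 counts, -0.056) had intervals below 0, and both values turned positive with per-length total scaling. The glucuronidase GUSB stood at 0.057. Of the other lumenal genes, the tripeptidyl peptidase TPP1 stood at -0.18 and the progranulin gene GRN at 0.035. PSAP (chromosome 10, 71816298 to 71851325) had 29547 and 32750 counts and stood at 0.18 (0.15 to 0.20), the highest value among lysosome genes after CTSL.

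The lysosome genes with and without an E-box did not stand apart. The 6 with an E-box had a median of -0.061 (range -0.31 to 0.11) and the 7 compared genes without one -0.085 (range -0.48 to 0.28). The 2 autophagy genes with an E-box stood at -0.42 (ATG3) and -0.0041 (ATG14), against a median of 0.16 for the 28 without. The number of genes is small and the medians carry no test. GAA stood at -0.23 and MCOLN1 at 0.11.

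Other genes of the same pathways were taken from 8 lists of 137 genes, of which 132 were compared. In the lists of autophagy, covering 42 genes, the median was 0.14, with 24 intervals above 0 (57.1%) and 8 below (19.0%). In the lists of the lysosome, covering 90 genes, the median was 0.018, with 30 above (33.3%) and 29 below (32.2%). The background was 22.5% above and 25.7% below among all genes, and 34.4% and 34.7% among those with at least 1000 counts, which the shares of the lysosome lists were near. The median of the lysosome lists was thus lower by 0.12 than that of the autophagy lists, with the same sign as among the members and a smaller size.

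**Figure D5:**
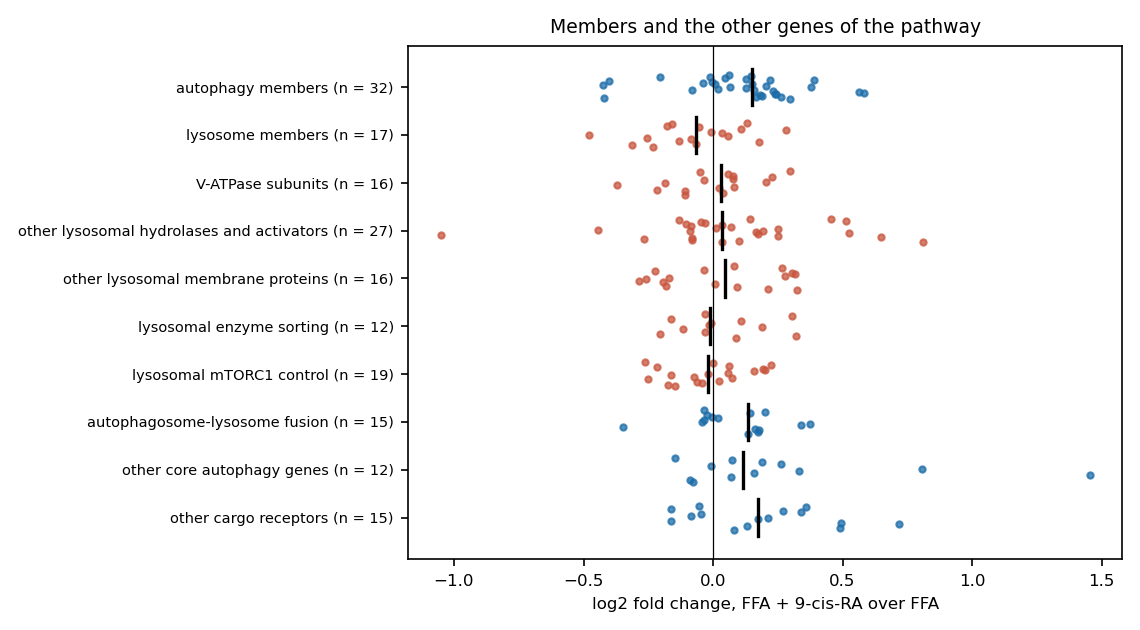
Log2 fold change (FFA + 9-cis-RA over FFA) of each compared gene in the 8 further lists, with the median of each list marked. The medians of the 3 autophagy lists lie at 0.14, 0.12 and 0.17 and those of the 5 lysosome lists between -0.019 and 0.045.

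The proton pump of the lysosome (V-ATPase, 16 genes) had a median of 0.031, with 5 intervals above 0 and 6 below. ATP6V0A1 was highest, with 3088 and 3719 counts (0.30), and ATP6V0C lowest, with 240 and 182 (-0.37). Another gene overlaps 76.3% of the exonic bases of ATP6V0C on the same strand.

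Of the other hydrolases and activators, 27 were compared, with a median of 0.035, 9 intervals above 0 and 8 below. SMPD1, the acid sphingomyelinase, was highest with 938 and 1616 counts, 0.81 (0.70 to 0.93). CTSS, a cysteine protease, was the 1 gene of the lysosome lists past 1 in either direction, with 301 and 142 counts, -1.05 (-1.35 to -0.76). LIPA, the acid lipase that hydrolyzes triglycerides and cholesteryl esters delivered by lipophagy, had 17525 and 14297 counts, -0.27 (-0.30 to -0.23). GALC (1 and 0 counts) and CTSF (1 and 1) were not compared.

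The other lysosomal membrane proteins (16 genes, median 0.045, 7 intervals above 0 and 5 below) ranged, leaving out genes under 100 normalized counts in both libraries, from SCARB2, the receptor that carries glucocerebrosidase to lysosomes, at 9170 and 11255 counts (0.32) to the tetraspanin CD63 at 13035 and 10695 (-0.26). The enzyme sorting genes (12 genes, median -0.012, positive under the other scalings, 5 intervals above 0 and 3 below) ranged from SORT1 at 5129 and 6289 counts (0.32) to the adaptor GGA1 at 4099 and 3487 (-0.21). Genes of mTORC1 control at the lysosome (19 genes) had a median of -0.019, positive under the other scalings, with 4 intervals above 0 and 7 below. TSC2, an inhibitor of the pathway, stood at 2936 and 3361 counts (0.22) and the Rag GTPase RRAGD at 3589 and 2934 (-0.26).

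Genes of autophagosome-lysosome fusion (15 genes, median 0.14, 8 intervals above 0 and 2 below) ranged from the tethering adaptor PLEKHM1 at 897 and 1140 counts (0.37) to VPS11, a subunit of the HOPS tethering complex, at 3221 and 2484 (-0.35). Of the other core autophagy genes (12 genes, median 0.12, 7 above and 2 below), ATG9B, the paralog of ATG9A, had 47 and 128 counts, 1.45 (0.98 to 1.99). VMP1, which acts in phagophore formation at the endoplasmic reticulum, stood lowest at 9109 and 8077 counts (-0.15). MAP1LC3C and GABARAPL3 had 0 counts in both libraries.

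The list of other cargo receptors (15 genes, median 0.17, 9 intervals above 0 and 4 below) also held PINK1, the kinase that marks damaged mitochondria for mitophagy. PINK1 stood highest in the list, with 1630 and 2634 counts, 0.72 (0.63 to 0.81). BNIP3, a mitophagy receptor, stood lowest, with 6311 and 5531 counts (-0.16). RETREG1 had 0 and 1 counts and was not compared.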

How the data were processed

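RNA sequencing of HepG2 cells was analyzed from 2 libraries, FFA and FFA + 9-cis-RA, with 1 library per group, grouped by GEO's labels. The authors deposited unnormalized counts of fragments from featureCounts version 2.0.1 (both mates mapped, strand setting 2). Multi-mapping reads and reads shared by several genes were left uncounted, so genes with a near copy or an overlapping neighbor have lower counts. GRCh38 and DESeq2 are named in the submitters' processing notes. The aligner and the annotation release are not given in the sources used here.

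Size factors came from DESeq2 version 1.42.0 and, as an alternative, edgeR version 4.0.16 (TMM), in R version 4.3.3. Ratios and exact 95% intervals used Python 3.11.15, numpy 2.4.6, pandas 2.3.3 and scipy 1.17.1, loess trends (span 0.3) statsmodels 0.14.6, and plots matplotlib 3.10.9. Intervals cover counting error only, and totals of 60821539 and 57669670 counts set their width. TPM was computed from exonic length. Steps were tested on simulated data. Of the entries, 58516 had an identifier in GENCODE release 29, used for GC content and 75-base words. Overlaps came from the exon positions deposited with the counts.

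The members and all lists were chosen with earlier results of these data known. Both counts and the log2 fold change are given for compared members past 0.5 in either direction and for the 5 highest and 5 lowest. They are also given for the 5 most abundant per length, the transcription factors, the compared ATG8 genes and members overlapped over 20%. The interval is given for most of these. In the other lists they are given for the highest and lowest gene with a normalized count of at least 100, any gene past 1 and LIPA. Other genes with counts are examples chosen after their values were seen. Alternatives were other scalings, pseudocounts, count minimums, trends, lists and call rules. Promoter motifs were searched in RefSeq promoters. The full CLEAR palindrome, also planned, is not reported here.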

Additional observations from a re-analysis of the deposited data

How the results depend on the processing

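The lysosome median minus the autophagy median kept its sign under all 14 alternatives (-0.24 to -0.16). Several of these could hardly move it, since library scaling cancels in the difference and pseudocounts barely act at these counts. The separate medians depended more on scaling. With total-count scaling the autophagy median was 0.20 and the lysosome median -0.018, and with per-length total scaling, chosen after seeing the data, they were 0.24 and 0.023, so the lysosome median changed sign. Removal of the trend on expression gave a lysosome median of -0.0048, and removal of the trend on GC content gave -0.014. Lysosome genes with intervals above 0, whose alternatives were all chosen after seeing the data, numbered 7 with total-count scaling, 7 with the GC trend removed and 9 with per-length total scaling, against 4. With no count minimum, 1 member stood above 1, 1 below -1 and 1 below -0.5, which were ULK2 and MAP1LC3A with few counts. With the length or the GC trend removed, 1 member stood below -0.5. With the whole interval past the threshold, 1 member stood above 0.5, MAP1LC3B. CTSA was 0.0023 with the expression trend removed and 0.023 with per-length total scaling, under which NEU1 was 0.035 and GLA 0.0055. Of 392 member values under alternatives, 317 stayed within their counting interval, 71 moved out of it with the same sign or from an interval holding 0, and 4 of those called changed sign. No paired analysis was possible because each group has 1 library, which also leaves no replicate to omit. Differences between cultures of 1 treatment could not be measured, and for ULK2, MAP1LC3A, CTSZ and MITF depth limits what can be seen.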
